A study of Mus musculus with 22 samples.

Results

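The comparison described here set livers taken near the end of the rest phase against livers taken near its start. Mice are nocturnal, so in a day of 12 h of light and 12 h of darkness they rest and eat little while the light is on. Times are zeitgeber times (ZT), counted in hours from lights on, and the comparison is ZT10 minus ZT2, 8 h apart and both in the light. Its members are the 4 arrays of ZT10 and the 4 arrays of ZT2, chosen by the time in the sample labels, which is 8 of the 22 arrays of the study. The mice were male adiponectin knockouts of the strain B6;129-Adipoqtm1Chan/J on a C57BL/6J background, 3 to 8 months old, housed in groups with free access to chow. They carried a whole-body loss of Adipoq, the gene of a hormone that fat cells release, and this holds for every array used. Since wild-type mice are not analysed here, the differences are those of the time of day in the knockout. The remaining arrays were 3 of ZT6, 4 of ZT14, 3 of ZT18 and 4 of ZT22; those of ZT6 are given beside the ends as the middle of the light phase, and those of ZT14 and ZT22 serve as the matching pair of times in the dark.

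RNA of each liver was hybridised to a Clariom S mouse array, which gives 1 value per transcript cluster, here called a feature. Values are the deposited log2 expression values, so a difference of 1 is a 2-fold difference, provided that the base of the logarithm is 2, which the sources used here do not state. Letters tell the arrays of a time apart (ZT2a) and were not taken as pairs. Each array was taken as 1 mouse, and p-values rest on the spread of the arrays within a time. This spread is pooled over all times of the study, also those outside the comparison. Differences carry limma's standard error (SE) and a limma p-value with Benjamini-Hochberg adjustment across all 22206 features; group means carry the SD with n = 4. A feature is called when that adjusted p is under 0.05.

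Arrays of 1 time correlated with each other between 0.984 and 0.991 over all features, and ZT2 with ZT10 arrays between 0.981 and 0.988. Along the principal components of the 8 arrays, ZT2d stood apart on the second (-50.8, against 5.54 to 34.0 for the other ZT2 arrays) and ZT10c on the third (42.7, against -25.0 to -5.19). Without ZT2d 451 features were called and without ZT10c 371, against 492 with all arrays. Among the ZT6 arrays, ZT6b and ZT6c had high Tff3, a trefoil peptide gene, at 10.35 and 11.6. The arrays of ZT2 and ZT10 read between 3.17 and 4.73 for it. The part of this in the ZT6 values given below was not tested. Adipoq gave signals at background level at both times, between 3.31 and 3.86 at ZT2 and between 3.30 and 3.52 at ZT10; where its probes lie relative to the disrupted part of the gene is not given in the sources used here. Of the hepatocyte markers 10 of 10 were measured and 0 were called, and their summed signal lay between 22.3 and 22.4 at each time.

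The liver clock is a feedback loop of transcription. The activators BMAL1 (Arntl), CLOCK and NPAS2 bind E-boxes and drive the period and cryptochrome genes, whose proteins then repress the activators, while the nuclear receptors REV-ERB and ROR act on Arntl. The same loop drives PAR bZIP factors such as DBP, which bind D-boxes and carry the rhythm to genes of metabolism. Feeding and fasting add signals of their own, through insulin, glucagon, bile acids and fatty acids, to genes of glycogen, lipid and bile acid handling.

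Over the light phase 492 of 22206 features were called, which is 2.22% of those tested. Of these, 232 were higher at ZT10 (1.04% of features) and 260 were lower (1.17%), and the median difference over all features was 0.0075. The calls belong to 211 named genes that rose and 244 that fell. A difference of at least 2-fold was seen in 299 of the called features, 138 higher and 161 lower, and the median size of a called difference was 1.11 against a median SE of 0.221 over all features. The arrays of the 2 times did not overlap in 463 of the 492 called features, beside 7.98% of all features (4.06% with every ZT10 array above and 3.93% with every ZT10 array below the ZT2 arrays). Calls were more frequent among bright features: 4.13% of features above the median level were called, against 0.297% of the others. The plot of difference against level shows both sides of this.

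**Figure D1:**
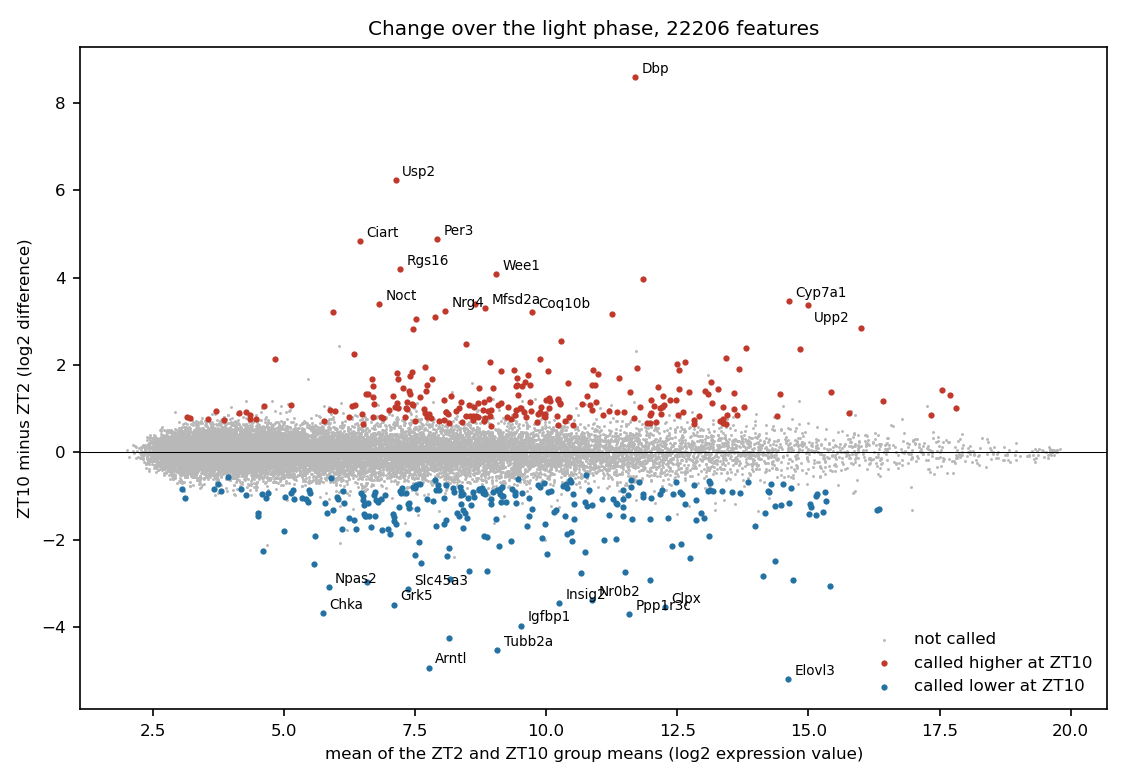
Difference ZT10 minus ZT2 (log2, vertical axis) against the mean of the 2 group means (log2 expression value, horizontal axis) for 22206 features; red points were called higher at ZT10, blue points lower, grey points were not called. Labels mark the 12 largest rises and the 12 largest falls among named genes whose arrays did not overlap; Dbp stands alone at the top with 8.59, and Elovl3 has the lowest value with -5.19.

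The activators of the clock were at their higher level at the start of rest: 3 of 3 measured fell. Arntl read 10.01, 10.05, 10.77 and 10.1 at ZT2 and 5.39, 4.94, 4.89 and 5.98 at ZT10, with ZT6 arrays of 7.02, 9.01 and 8.01 in between. The groups were far apart, and the difference was -4.93 (SE 0.295, adjusted p = 5.53e-11), which is 30.5-fold. Npas2, a paralog of Clock, fell by 3.10 (SE 0.329, adjusted p = 1.18e-06), from 7.33, 7.81, 8.06 and 6.4 to 4.12, 4.24, 4.62 and 4.24. At ZT10 its level was close to the lower quartile of an array, near 3.78, so the size of this fold is less certain. Clock itself fell from 13.87, 14.27, 14.24 and 13.87 to 11.91, 12.08, 12.31 and 12.31, a difference of -1.91 (SE 0.186, adjusted p = 3.04e-07), the smallest of the 3.

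The repressors moved the other way. Of 11 core clock repressors and nuclear receptors measured, 8 rose and 0 fell, with a median difference of 1.78. Per3 read 5.67, 5.87, 5.25 and 5.13 at ZT2 and 10.33, 9.95, 10.5 and 10.66 at ZT10, a rise of 4.88 (SE 0.362, adjusted p = 2.72e-09) or 29.4-fold. Per1 rose by 3.21 (SE 0.366, adjusted p = 3.41e-06) from between 3.97 and 4.76, near background, so the size of its rise is rough. Per2 rose by 2.81 (SE 0.315, adjusted p = 2.37e-06) from between 5.81 and 6.48. No array of a period gene at ZT10 reached down to its ZT2 range. Ciart, a repressor of the BMAL1 and CLOCK pair, rose from 3.74, 3.94, 4.66 and 3.81 to 8.74, 8.97, 9.03 and 8.76 (4.84, SE 0.306, adjusted p = 1.56e-10). Its ZT2 level lay about that of the lower quartile of an array, so the 28.6-fold rise is a rough size. The E-box repressors Bhlhe40 and Bhlhe41 rose by 1.44 (SE 0.296, adjusted p = 0.00539) and 2.25 (SE 0.433, adjusted p = 0.0030), and the cryptochrome Cry2 by 1.19 (SE 0.196, adjusted p = 0.000546).

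The nuclear receptors of the loop did not move as a group. Nr1d2, which encodes REV-ERB beta, rose by 1.78 (SE 0.224, adjusted p = 1.38e-05), and its ZT6 arrays of 11.63, 11.51 and 11.4 were already near the ZT10 arrays of 11.89, 11.79, 11.6 and 12.2. Nr1d1, which encodes REV-ERB alpha, read 10.22, 9.86, 9.92 and 10.6 at ZT2 and 9.26, 10.62, 10.31 and 10.93 at ZT10. The groups overlapped and the difference was 0.13 (SE 0.296, adjusted p = 0.925), while the ZT6 arrays, at 11.65, 12.43 and 11.91, lay above every array of both ends. The comparison of the ends does not show this midday maximum. Cry1 differed by -0.59 (SE 0.211, adjusted p = 0.185) and Rora by -0.35 (SE 0.200, adjusted p = 0.525). Of 9 kinases and ubiquitin ligases that act on clock proteins 0 were called, with differences from -0.29 to 0.67.

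Among the PAR bZIP factors and their known targets, 6 of 11 rose and 1 fell, with a median difference of 1.42. Dbp had the largest difference of any feature. Its ZT2 arrays read 6.91, 8.43, 6.72 and 7.56, the ZT6 arrays 14.7, 14.09 and 12.2, and the ZT10 arrays 15.72, 15.95, 16.43 and 15.89. The rise of 8.59 (SE 0.392, adjusted p = 5.03e-13) corresponds to 386-fold, and most of it lay between ZT2 and ZT6. Its relatives Tef (2.14, SE 0.293, adjusted p = 4.80e-05) and Hlf (1.14, SE 0.215, adjusted p = 0.00256) rose less, Tef from a ZT2 mean of 3.75 that is near background. Nfil3, which binds the same D-box as a repressor, fell from 9.4, 9.29, 9.54 and 8.96 to 6.96, 7.03, 6.64 and 7.05 (-2.38, SE 0.209, adjusted p = 5.24e-08). In Nfil3 the ZT6 arrays, between 6.92 and 7.34, were already at the ZT10 level. The targets Cyp2a5 and Cyp2a4, P450 enzymes of drug and steroid metabolism, rose by 1.42 (SE 0.277, adjusted p = 0.00333) and 1.90 (SE 0.470, adjusted p = 0.0272); they are near-identical in sequence, so their probes may read each other's transcript. The call of Cyp2a4 was lost without any of 6 of the 8 arrays (ZT2a, ZT2b, ZT2c, ZT10a, ZT10b or ZT10d), with adjusted p up to 0.110.

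The promoters of some genes with large differences show how these boxes lie in sequence. Each window below is the 250 bases before a gene's start, from RefSeq on GRCm38.p6, written 5′ to 3′ on the gene's own strand, with matches in capitals. The motifs searched on both strands were the E-box CACGTG, the D-box TTANGTAA, the ROR element half-site TAGGTCA and the cAMP response element (CRE) TGACGTCA, which do not overlap one another in the windows shown. The 6 shown are the genes of largest difference among the named ones whose window held a match. Of the 91 named genes called, 73 had a window. Several genes of larger or similar difference are thus not shown: Dbp, Usp2 and Arntl held no match, and Elovl3 and Wee1 had no window. Per3 holds the D-box at 205 and 158 bases before the start, Ciart the E-box at 116, 58 and 44 bases, Tubb2a the CRE at 59, Ppp1r3c the E-box at 104, Nr0b2 the E-box at 195, and Coq10b the D-box at 162 and the E-box at 78. Per3, Ciart and Coq10b rose over the light phase, and Tubb2a, Ppp1r3c and Nr0b2 fell.
Per3 (chr4:151044666-151044915, minus strand): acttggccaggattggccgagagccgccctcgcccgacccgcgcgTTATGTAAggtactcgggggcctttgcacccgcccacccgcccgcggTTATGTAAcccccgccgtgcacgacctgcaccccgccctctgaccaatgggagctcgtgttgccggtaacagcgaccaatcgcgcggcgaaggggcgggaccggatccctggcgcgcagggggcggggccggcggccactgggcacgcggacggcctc
Ciart (chr3:95882229-95882478, minus strand): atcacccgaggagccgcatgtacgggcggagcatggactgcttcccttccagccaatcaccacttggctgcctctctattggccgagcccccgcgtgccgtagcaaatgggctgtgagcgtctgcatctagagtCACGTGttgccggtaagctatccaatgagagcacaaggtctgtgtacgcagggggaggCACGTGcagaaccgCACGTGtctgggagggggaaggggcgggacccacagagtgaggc
Tubb2a (chr13:34078009-34078258, minus strand): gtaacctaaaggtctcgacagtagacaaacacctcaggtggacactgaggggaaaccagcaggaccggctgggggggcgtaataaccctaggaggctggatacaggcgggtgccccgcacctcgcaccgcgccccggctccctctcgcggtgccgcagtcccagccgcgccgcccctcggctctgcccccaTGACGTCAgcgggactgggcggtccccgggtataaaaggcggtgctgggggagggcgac
Ppp1r3c (chr19:36736605-36736854, minus strand): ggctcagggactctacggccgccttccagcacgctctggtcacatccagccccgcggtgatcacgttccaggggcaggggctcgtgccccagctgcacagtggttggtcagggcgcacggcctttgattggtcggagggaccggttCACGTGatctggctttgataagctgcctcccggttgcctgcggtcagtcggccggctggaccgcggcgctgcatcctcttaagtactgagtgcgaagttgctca
Nr0b2 (chr4:133553126-133553375, plus strand): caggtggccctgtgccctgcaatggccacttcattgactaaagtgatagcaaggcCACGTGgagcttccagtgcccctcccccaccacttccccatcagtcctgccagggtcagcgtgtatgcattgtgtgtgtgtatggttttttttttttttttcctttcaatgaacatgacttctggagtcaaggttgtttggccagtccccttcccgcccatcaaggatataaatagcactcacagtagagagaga
Coq10b (chr1:55052520-55052769, plus strand): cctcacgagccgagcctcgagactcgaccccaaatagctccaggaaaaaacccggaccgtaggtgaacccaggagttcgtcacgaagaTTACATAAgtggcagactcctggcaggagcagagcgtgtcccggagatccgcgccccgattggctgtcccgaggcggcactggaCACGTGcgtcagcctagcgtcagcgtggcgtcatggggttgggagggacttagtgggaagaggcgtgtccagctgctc

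Over all windows, the E-box was present in 13.9% of those of genes called higher and 8.43% of those of genes called lower, against 6.88% of all windows. The D-box was found in 3.8%, 1.92% and 1.85% of the same 3 sets. The ROR half-site was found in 1.69% of windows of higher genes, 4.98% of lower genes and 1.98% of all, and the CRE in 0.844%, 2.3% and 1.99%. The sets held 237 windows of 176 genes, 261 windows of 194 genes and 19143 windows of 15691 genes. These shares are a description, since a match is not a bound site and some genes have several windows.

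Other genes stood among the largest changes in both directions. Of 14 measured genes listed for strong daily rhythms in liver, 7 rose and 4 fell, beside 1.04% and 1.17% of all features. They were listed for such rhythms, with earlier results of these data known, so the count is favoured by the choice. Usp2, a ubiquitin-specific protease, rose from 3.5, 4.62, 4.23 and 3.72 to 10.48, 10.08, 10.46 and 9.98 (6.23, SE 0.520, adjusted p = 2.28e-08). Its ZT6 arrays were spread from 3.87 to 8.14, and its ZT2 level was near background, so the fold of 75.2 is rough. Rgs16, which shortens signalling by G proteins, rose by 4.20 (SE 0.629, adjusted p = 0.00015), from 5.4, 4.16, 4.33 and 6.59 to 9.37, 8.61, 9.66 and 9.62. Wee1, a kinase that restrains entry into mitosis, rose from 7.19, 6.99, 6.84 and 7.03 through 8.85, 8.74 and 8.28 at ZT6 to 11.21, 11.07, 11.2 and 10.86 (4.07, SE 0.210, adjusted p = 4.04e-12). Noct, which encodes the phosphatase nocturnin, rose by 3.40 (SE 0.782, adjusted p = 0.0148) and was uneven in between, with ZT6 arrays of 6.93, 11.07 and 8.92. Its call was lost without ZT10a (adjusted p = 0.0551) and without ZT10c (adjusted p = 0.0525), while the difference stayed between 3.23 and 3.68 with each array left out. A trend and robust prior and a 1.5-fold minimum also lost the call, which was kept when only the ZT2 and ZT10 arrays were fitted.

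On the falling side, Elovl3, an elongase of long-chain fatty acids, had the lowest difference of all features. It read 17.28, 17.42, 17.45 and 16.69 at ZT2, 14.85, 14.89 and 14.88 at ZT6, and 10.6, 12.64, 12.12 and 12.71 at ZT10. The difference was -5.19 (SE 0.345, adjusted p = 3.37e-10), 36.6-fold, in a gene that was bright at ZT2. Rnf125, a ubiquitin ligase, fell by 3.05 (SE 0.316, adjusted p = 7.45e-07) from between 16.4 and 17.26. Tubb2a, a beta-tubulin, fell by 4.53 (SE 0.394, adjusted p = 4.63e-08): the ZT2 arrays read 11.02, 11.4, 11.93 and 10.97 and the ZT10 arrays 6.49, 7.06, 6.43 and 7.24. The ZT6 arrays of Tubb2a, 9.65, 11.05 and 10.9, lay close to the ZT2 arrays, so that in these samples most of the fall came after ZT6. Its close paralog Tubb2b, which shares sequence with it, was lower by 0.89 at a level of 3.36 to 4.25 near background (SE 0.205, adjusted p = 0.0149), a call lost without ZT2b or ZT10b (adjusted p up to 0.0768).

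**Figure D2:**
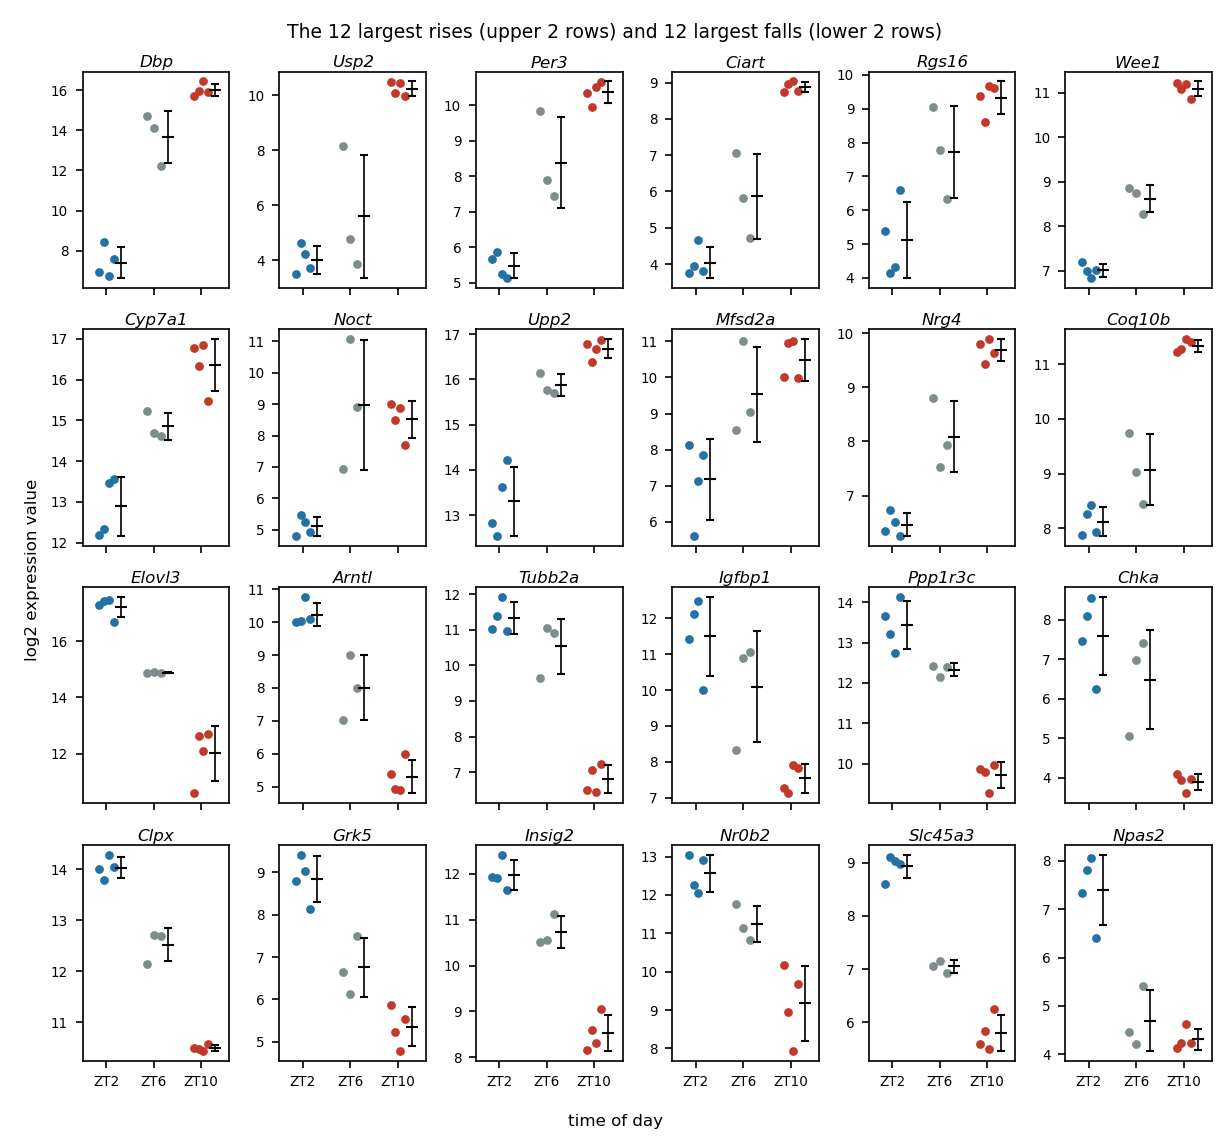
Log2 expression values (vertical axes, each with its own range) of single arrays at ZT2 (blue, n = 4), ZT6 (grey, n = 3) and ZT10 (red, n = 4) for the 12 largest rises (upper rows) and the 12 largest falls (lower rows); black bars give the mean and SD. The red and blue points do not overlap in any panel, as the choice of these genes requires, and the ZT6 mean lies between the end means in every panel but Noct, where it is the highest of the 3.

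The remaining large changes were in genes of varied roles. Upp2, a uridine phosphorylase, rose by 3.37 (SE 0.329, adjusted p = 3.13e-07) from 12.83, 12.55, 13.62 and 14.22 to 16.77, 16.38, 16.68 and 16.87. Coq10b, a coenzyme Q binding protein of mitochondria, rose by 3.22 (SE 0.268, adjusted p = 2.28e-08), and Nrg4, a growth factor of the neuregulin family, by 3.23 (SE 0.427, adjusted p = 2.77e-05). Mfsd2a, a transporter of lysophosphatidylcholine, rose by 3.30 (SE 0.641, adjusted p = 0.00328) with a wide ZT2 spread, from 5.62 to 8.14. Among the falls, Clpx, the ATPase of a mitochondrial protease, was tight at both ends: 14, 13.8, 14.29 and 14.05 became 10.5, 10.47, 10.44 and 10.58 (-3.54, SE 0.196, adjusted p = 1.46e-11). Chka, a choline kinase, fell by 3.68 (SE 0.454, adjusted p = 1.04e-05) and the kinase Grk5 by 3.49 (SE 0.385, adjusted p = 2.00e-06). Slc45a3, a membrane transporter, fell by 3.14 (SE 0.349, adjusted p = 2.26e-06), and the water channel Aqp8 by 2.76 (SE 0.442, adjusted p = 0.000374).

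Counts per gene list are shown in the plot of called genes by list. A gene can stand in more than 1 list, and the counts are to be read against 1.04% of all features called higher and 1.17% called lower. The lists were chosen with earlier results of these data known, so their counts, also those given above, are a description.

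**Figure D3:**
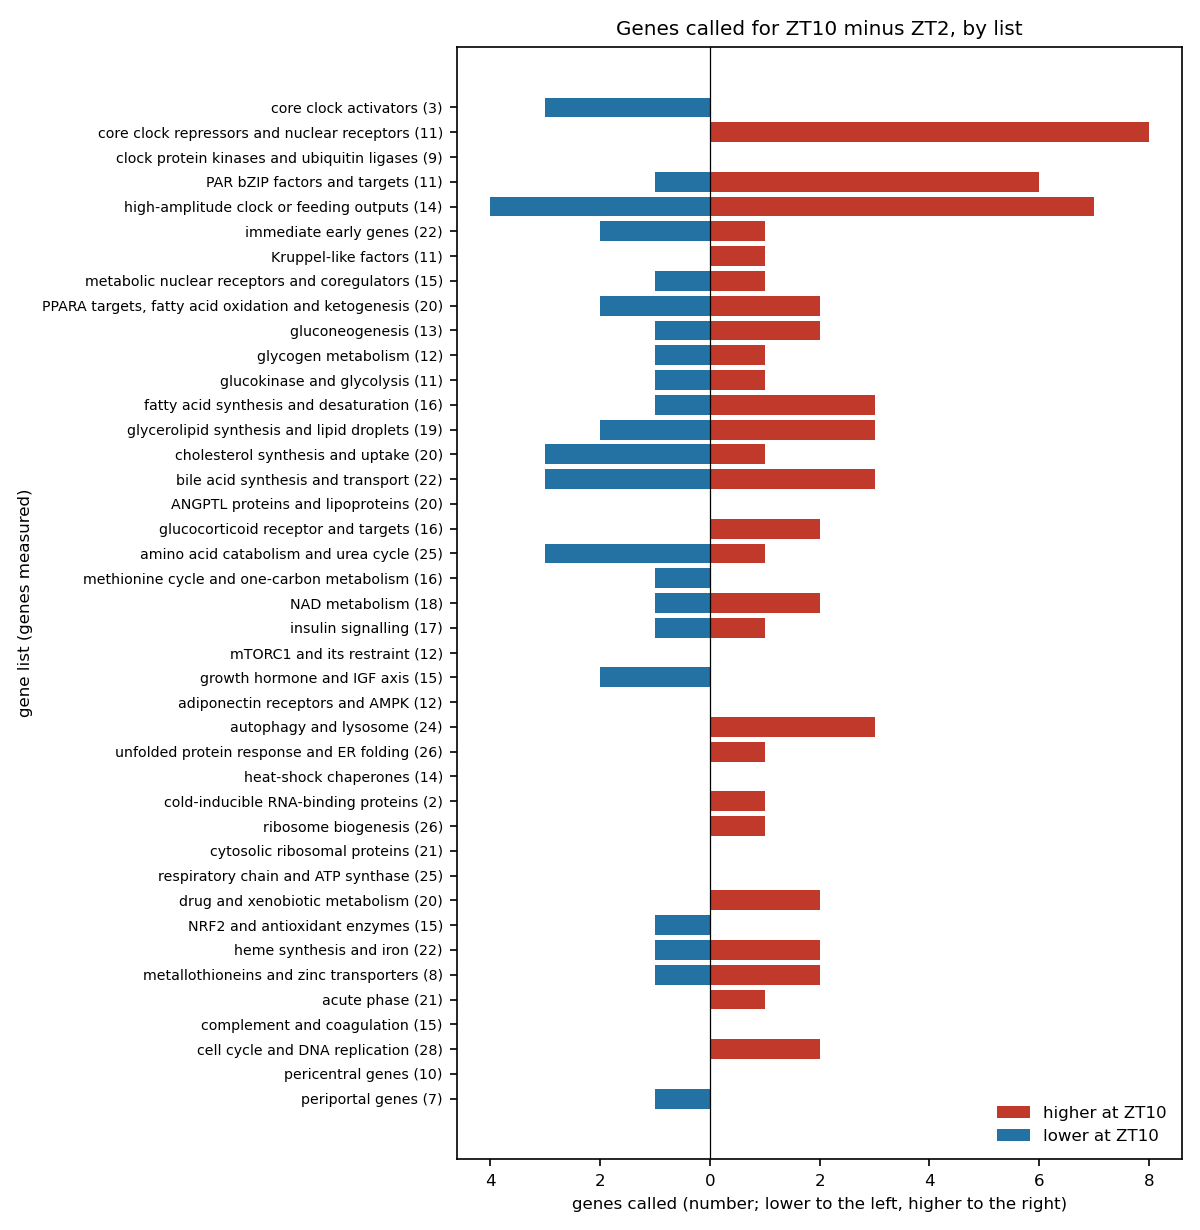
Number of genes called higher at ZT10 (red, to the right) and lower at ZT10 (blue, to the left) in each of 41 gene lists, with the number of genes measured in brackets. The clock repressors reach 8 of 11 to the right and the clock activators 3 of 3 to the left, while 9 lists, among them ribosomal proteins, the respiratory chain and heat-shock chaperones, hold 0 called genes.

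In bile acid metabolism the first enzyme of the classic pathway rose and its repressor fell; in all, 3 of 22 measured genes of bile acid synthesis and transport rose and 3 fell, with a median difference of 0.07. Cyp7a1, which limits the rate of bile acid synthesis, read 12.2, 12.34, 13.47 and 13.57 at ZT2, 15.24, 14.7 and 14.62 at ZT6 and 16.77, 16.34, 16.86 and 15.47 at ZT10. The rise was 3.47 (SE 0.370, adjusted p = 1.25e-06), or about 11-fold. Nr0b2 encodes SHP, which represses Cyp7a1, and fell from 13.05, 12.26, 12.05 and 12.91 to 10.18, 8.94, 7.93 and 9.68 (-3.39, SE 0.478, adjusted p = 6.70e-05). In both genes the groups were apart by more than their spread and the ZT6 arrays lay in between. Abcb11, the bile salt export pump, fell by 1.23 (SE 0.164, adjusted p = 3.23e-05), and Hsd3b7, an enzyme of bile acid synthesis, by 1.40 (SE 0.25, adjusted p = 0.00143). Abcg5 and Abcg8, which pair to export sterols into bile, were higher by 1.38 (SE 0.341, adjusted p = 0.0266) and 1.20 (SE 0.263, adjusted p = 0.0103). The Abcg5 call was lost without ZT2a, ZT2c, ZT10a or ZT10d (adjusted p up to 0.109) and that of Abcg8 without ZT2c (0.0535). Cyp27a1, of the alternative pathway, differed by -0.16 (95% interval, not adjusted for the number of features, -0.54 to 0.22; adjusted p = 0.817), and Cyp8b1, which sets the share of cholic acid, by -0.77 (interval -1.69 to 0.15, adjusted p = 0.529).

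Of 20 measured genes of cholesterol synthesis and uptake 3 fell and 1 rose, with a median difference of -0.38. Insig2, which holds the SREBP complex in the endoplasmic reticulum, fell from 11.94, 11.9, 12.42 and 11.65 through 10.51, 10.56 and 11.13 to 8.15, 8.59, 8.32 and 9.05 (-3.45, SE 0.221, adjusted p = 1.82e-10). Hmgcs1, an early enzyme of the pathway, stayed near 16 at ZT2 and ZT6 and was spread at ZT10, at 13.78, 14.31, 15.3 and 15.02, all below its other arrays (-1.37, SE 0.242, adjusted p = 0.00125). Insig1 fell by 0.92 (SE 0.210, adjusted p = 0.0147), a call lost without ZT2a, ZT2b or ZT10b (adjusted p up to 0.0869). That call was also lost when only the ZT2 and ZT10 arrays were fitted. Stard4, a carrier of cholesterol between membranes, rose by 0.89 (SE 0.197, adjusted p = 0.0109; without ZT10b 0.0530). The enzymes Sqle (-0.36, interval -0.92 to 0.20), Idi1 (-0.40, -0.85 to 0.05), Fdps (-0.46, -0.93 to 0.01) and Cyp51 (-0.29, -0.75 to 0.18) did not pass the test.

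In glycogen metabolism 1 of 12 rose and 1 fell. Gys2, the liver glycogen synthase, rose from 11.36, 11.47, 11.45 and 11.7 to 13.86, 13.46, 13.51 and 13.21 (2.02, SE 0.205, adjusted p = 5.89e-07). Ppp1r3c, a subunit that brings protein phosphatase to glycogen and favours synthase activity, fell from 13.66, 13.21, 12.75 and 14.13 to 9.87, 9.8, 9.27 and 9.97 (-3.71, SE 0.262, adjusted p = 1.09e-09). The 2 changes were opposite in sign, and the ZT6 arrays of Ppp1r3c, between 12.14 and 12.43, were nearer to its ZT2 level. In gluconeogenesis 2 of 13 rose and 1 fell. The glucose 6-phosphate transporter Slc37a4 rose by 1.61 (SE 0.230, adjusted p = 8.11e-05), while G6pc, the catalytic subunit of glucose 6-phosphatase that works beside it, fell by 1.32 (SE 0.321, adjusted p = 0.0240) with arrays of 17.3, 17.04, 16.89 and 16.62 against 15.73, 15.52, 15.81 and 15.51. The G6pc call was lost without any of ZT2a, ZT2b, ZT2c, ZT10a, ZT10b or ZT10d, with adjusted p up to 0.0939. Slc2a2, the glucose transporter GLUT2, was higher at ZT10 by 1.02 (SE 0.270, adjusted p = 0.0424). Its arrays did not overlap, at 17.24 to 17.46 for ZT2 and 18.19 to 18.64 for ZT10. The call was lost whichever of the 8 arrays was left out (adjusted p from 0.0645 to 0.152). It was kept when only the ZT2 and ZT10 arrays were fitted. A trend and robust prior, the letter as a block, ranks and a 1.5-fold minimum each lost it. Pck1, the classic gluconeogenic enzyme, differed by 1.06 (interval 0.27 to 1.84, adjusted p = 0.189), and its arrays did not overlap (16.41 to 17.05 against 17.59 to 17.99).

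In glycolysis Pfkfb3, which makes the activator of phosphofructokinase, rose from 5.63, 6.75, 6.64 and 6.29 to 9.92, 9.23, 9.32 and 9.23 (3.10, SE 0.342, adjusted p = 2.00e-06), and the glucokinase regulator Gckr fell by 0.69 (SE 0.171, adjusted p = 0.0266), 1 gene of 11 each way. Without ZT2c, ZT2d, ZT10c or ZT10d the Gckr call was lost, with adjusted p up to 0.124. It was also lost when only the ZT2 and ZT10 arrays were fitted. Of 17 insulin signalling genes, 1 rose and 1 fell. Pik3r1, the regulatory subunit of PI3 kinase, rose by 1.07 (SE 0.237, adjusted p = 0.0114; without ZT2d 0.0518). Igfbp1, a secreted binding protein whose transcript insulin lowers, fell from 11.42, 12.11, 12.49 and 10 to 7.28, 7.12, 7.91 and 7.84 (-3.97, SE 0.739, adjusted p = 0.00211). Its ZT6 arrays split, with 8.32 in ZT6a and 10.9 and 11.07 in ZT6b and ZT6c. ZT6b and ZT6c also belong to the 5 arrays of the study with high Tff3, a trefoil peptide gene, at 10.35 and 11.6 there and between 3.17 and 4.73 in the arrays of ZT2 and ZT10. The part of this in the ZT6 values was not tested. In the growth hormone and IGF axis 2 of 15 fell, Igfbp1 and Stat5b (-0.86, SE 0.173, adjusted p = 0.00473), while Igf1 differed by 0.06 (interval -0.27 to 0.38, adjusted p = 0.941).

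Fat handling showed rises and falls side by side. Ppara, the nuclear receptor that drives fatty acid oxidation, rose from 11.31, 11.41, 12.25 and 11.4 to 13.4, 13.47, 13.33 and 13.67 (1.88, SE 0.247, adjusted p = 2.71e-05). Cpt1a, which admits fatty acids to mitochondria, rose from 12.45, 12.52, 12.85 and 12.44 to 13.7, 14.16, 14.09 and 14.07 (1.44, SE 0.245, adjusted p = 0.000778). In the list of PPARA targets, fatty acid oxidation and ketogenesis, these 2 of 20 rose, 2 fell, and the median difference was -0.05. The falls were Cyp4a14, an omega-hydroxylase (-2.48, SE 0.567, adjusted p = 0.0144), and Pdk4, a kinase that restrains pyruvate dehydrogenase (-1.76, SE 0.317, adjusted p = 0.00153). Cyp4a14 was uneven at ZT2, with 14.51, 14.12, 16.58 and 17.18, belongs to a family of close paralogs, and lost its call without ZT2c, ZT2d or ZT10d (adjusted p up to 0.0767).

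Of 16 genes of fatty acid synthesis and desaturation 3 rose and 1, Elovl3, fell. Elovl6, which elongates palmitate, rose by 2.16 (SE 0.326, adjusted p = 0.000171), from 12.91, 11.8, 12.94 and 11.77 to 14.53, 13.54, 15.5 and 14.47. Thrsp, a lipogenic protein also called Spot 14, rose by 2.37 (SE 0.521, adjusted p = 0.0105; without ZT2b 0.0581), and the desaturase Fads2 by 1.32 (SE 0.292, adjusted p = 0.0111). The central enzymes were not called: Fasn differed by 0.20 (interval -0.39 to 0.79), Acly by -0.16 (-0.84 to 0.53) and Acaca by 0.74 (0.31 to 1.17, adjusted p = 0.0635). Among glycerolipid and lipid droplet genes 3 of 19 rose and 2 fell. The phosphatidate phosphatase Lpin1 rose from 9.69, 9.37, 9.94 and 9.71 to 12.47, 11.87, 13.65 and 13.41 (3.17, SE 0.429, adjusted p = 3.82e-05), and Lpin2 by 1.36 (SE 0.274, adjusted p = 0.00449). Pnpla2, the triglyceride lipase ATGL, rose by 1.03 (SE 0.219, adjusted p = 0.00801), and its inhibitor G0s2 was lower by 1.95 (SE 0.520, adjusted p = 0.0471). The G0s2 call was lost without ZT2a, ZT2c, ZT2d, ZT10c or ZT10d, with adjusted p up to 0.182. The droplet coat gene Plin2 fell by 1.16 (SE 0.235, adjusted p = 0.00502), with arrays of 15.3, 15.25, 15.44 and 14.81 against 13.31, 14.65, 13.84 and 14.38.

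**Figure D4:**
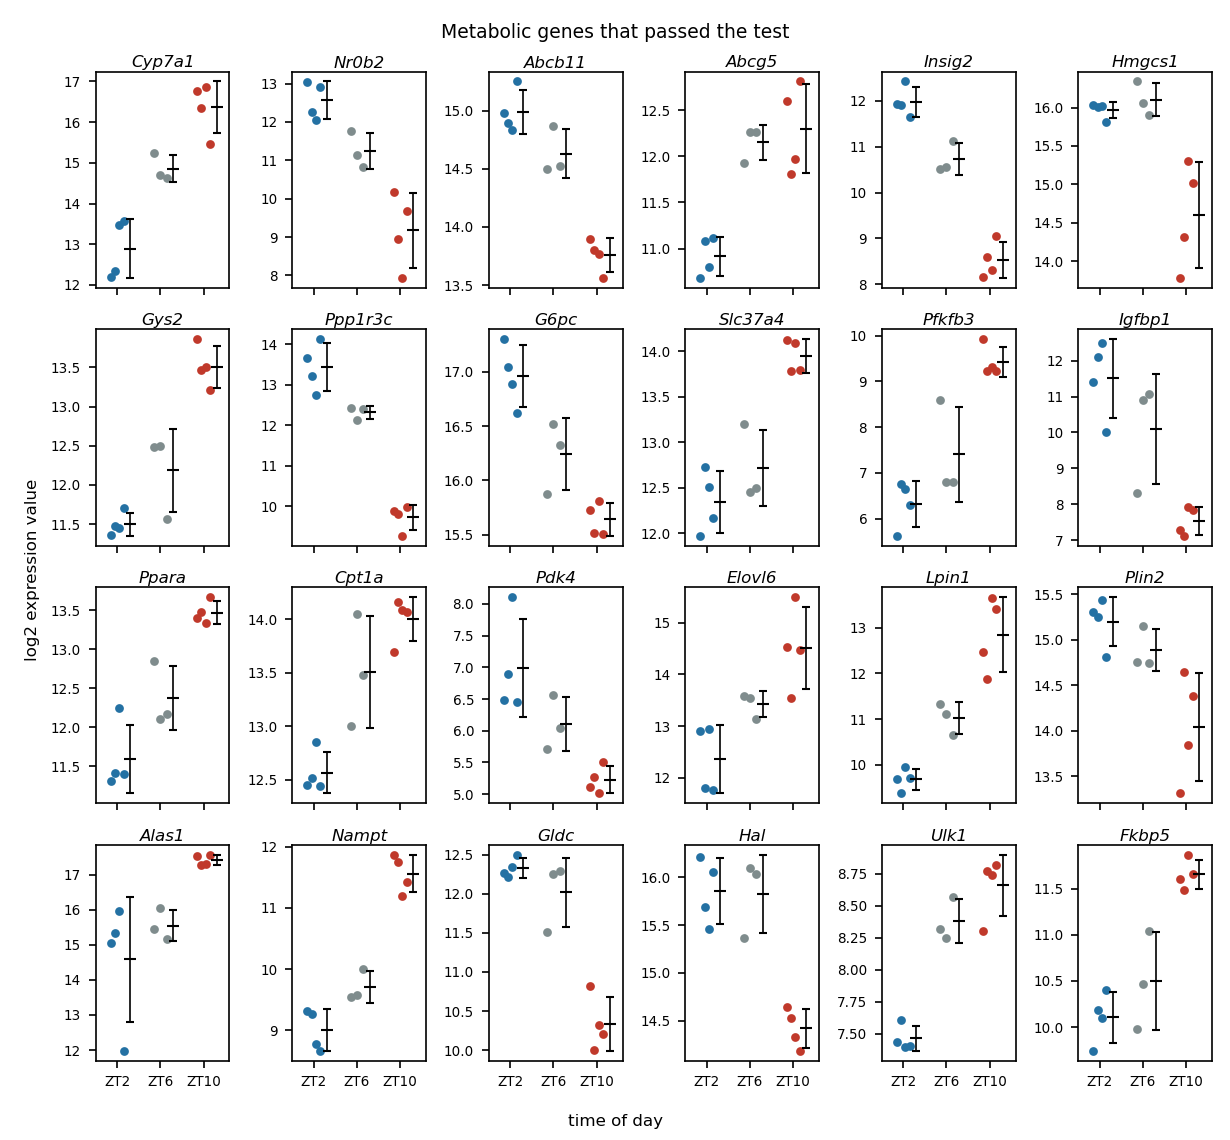
Log2 expression values (vertical axes, each with its own range) of single arrays at ZT2 (blue, n = 4), ZT6 (grey, n = 3) and ZT10 (red, n = 4) for 24 metabolic genes that were called, chosen after their values were seen; black bars give the mean and SD. Cyp7a1 and Nr0b2 run in opposite directions, in Gldc and Hmgcs1 every ZT10 array lies under every ZT2 and ZT6 array, and in Alas1 the array ZT2d (11.97) lies far under the other ZT2 arrays.

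Alas1, the rate-limiting enzyme of heme synthesis, rose by 2.84 (SE 0.553, adjusted p = 0.00333), from 15.06, 15.34, 15.96 and 11.97 to 17.54, 17.28, 17.3 and 17.56. The groups do not overlap, but ZT2d enlarges the difference, which was 1.97 without it. In the list of heme synthesis and iron 2 of 22 rose and 1 fell. The iron exporter Slc40a1 was higher by 1.21 (SE 0.309, adjusted p = 0.0352), a call lost whichever array was left out (adjusted p from 0.0527 to 0.119). That call was kept when only the ZT2 and ZT10 arrays were fitted, and lost with ranks and with a 1.5-fold minimum. Hjv, a co-receptor for hepcidin control, fell by 1.23 (SE 0.197, adjusted p = 0.000378). In NAD metabolism 2 of 18 rose and 1 fell. Nampt, the rate-limiting enzyme of NAD salvage, rose from 9.32, 9.27, 8.77 and 8.66 to 11.87, 11.75, 11.2 and 11.42 (2.56, SE 0.278, adjusted p = 1.65e-06), with ZT6 arrays between 9.55 and 10. Nmrk1, which salvages nicotinamide riboside, rose by 1.71 (SE 0.200, adjusted p = 4.72e-06). Kynu, an enzyme of tryptophan breakdown, was lower by 0.91 (SE 0.209, adjusted p = 0.0154), a call lost without ZT2a, ZT2d, ZT10a or ZT10b (adjusted p up to 0.0733).

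Enzymes of amino acid breakdown fell where they were called, with 1 exception: 3 of 25 fell and 1 rose, and the median difference was -0.09. Gldc and Amt, subunits of the glycine cleavage system, fell by 1.99 (SE 0.219, adjusted p = 2.00e-06) and 1.21 (SE 0.178, adjusted p = 0.000123). Gldc read 12.26, 12.21, 12.34 and 12.5 at ZT2, 11.51, 12.25 and 12.29 at ZT6 and 10.82, 10, 10.32 and 10.21 at ZT10, so every ZT6 array lay above every ZT10 array. Hal, histidine ammonia-lyase, fell by 1.44 (SE 0.217, adjusted p = 0.000172), from 16.21, 15.69, 15.46 and 16.06 to 14.64, 14.53, 14.33 and 14.18. Gpt2, an alanine aminotransferase, rose by 0.85 (SE 0.199, adjusted p = 0.0172), a call lost without ZT2b, ZT10a or ZT10c (adjusted p up to 0.0797). In the methionine cycle Cbs, 1 gene of 16, was lower by 0.96 (SE 0.251, adjusted p = 0.0417), a call lost without any of 7 of the 8 arrays (all but ZT10d), with adjusted p up to 0.168. Quantile normalization lost it as well.

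Fkbp5, a target of the glucocorticoid receptor, rose from 9.74, 10.18, 10.1 and 10.4 to 11.6, 11.49, 11.87 and 11.66 (1.55, SE 0.285, adjusted p = 0.00185); with Per1 it made 2 of 16 genes of that list, while Tsc22d3 differed by -0.17 (interval -1.01 to 0.67). In autophagy 3 of 24 rose: the kinase Ulk1 (1.19, SE 0.218, adjusted p = 0.0018), Uvrag (1.17, SE 0.197, adjusted p = 0.000721) and Bnip3 (1.51, SE 0.233, adjusted p = 0.000239). Among metallothioneins and zinc transporters 2 of 8 rose and 1 fell. Slc39a14, a zinc and manganese importer, rose by 1.39 (SE 0.219, adjusted p = 0.000301) and Slc30a10, a manganese exporter, fell by 2.03 (SE 0.235, adjusted p = 4.08e-06). Slc30a1 was higher by 0.69 (SE 0.172, adjusted p = 0.0306), a call lost without any of ZT2a, ZT2d, ZT10a, ZT10b, ZT10c or ZT10d (adjusted p up to 0.129). Fitting only the ZT2 and ZT10 arrays, or the letter as a block, lost it as well. Mt1 and Mt2, which may share signal, differed by 2.32 (interval 0.99 to 3.65, adjusted p = 0.0596) and 1.59 (0.39 to 2.79, adjusted p = 0.203). Their arrays did not overlap, at 9.92 to 11.6 against 12.15 to 13.45 and 7.32 to 8.67 against 8.93 to 9.81. Every ZT10 array was above every ZT2 array in 4.06% of all features. Their ZT6 arrays, with SDs of 2.39 and 2.31, enter the SE. Without the 5 arrays of high Tff3, 5 genes of this list were called, while calls over all features went from 492 to 610. Calls in the glucocorticoid list, which also holds Mt1 and Mt2, went from 2 to 5. The part of these arrays in the results of Mt1 and Mt2 was not tested.

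The interleukin 6 receptor Il6ra was the 1 called gene of 21 of the acute phase and rose by 2.06 (SE 0.299, adjusted p = 9.47e-05). Klf13 was the 1 of 11 Kruppel-like factors (1.69, SE 0.174, adjusted p = 7.08e-07), Gclc, which limits glutathione synthesis, the 1 of 15 antioxidant genes (-1, SE 0.214, adjusted p = 0.00833), and the cold-inducible Rbm3 rose by 1.09 (SE 0.227, adjusted p = 0.00633) while its relative Cirbp differed by -0.72. Herpud1 was the 1 of 26 genes of the unfolded protein response to rise (1.17, SE 0.251, adjusted p = 0.00875; without ZT2a 0.0515), against a median of -0.27 in that list. Nop2 was the 1 of 26 for ribosome biogenesis (0.95, SE 0.219, adjusted p = 0.0154), a call lost without ZT2a or ZT10a (adjusted p up to 0.0708). In the cell cycle list 2 of 28 rose, Wee1 and Ccne1 (1.68, SE 0.305, adjusted p = 0.00167).

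Immediate early genes were uneven between animals. Of 22 measured, 1 was higher and 2 fell, with a median of -0.51. Egr1 read 10.97, 12.62, 10.26 and 7.26 at ZT2 and 4.65, 7.55, 5.45 and 6.47 at ZT10. The groups overlapped through ZT2d, and the difference of -4.25 (SE 0.809, adjusted p = 0.00265) was -5.25 without ZT2d and -3.47 without ZT2b. Ccn1 fell by 1.51 (SE 0.271, adjusted p = 0.00147). Myc, at 6.38, 8.8, 7.76 and 4.84 against 7.01, 11.4, 11.96 and 10.96, overlapped as well. Its difference of 3.39 (SE 0.898, adjusted p = 0.0444) was 2.69 without ZT2d, 4.01 without ZT2b and 4.50 without ZT10a. The call was lost without any of ZT2a, ZT2c, ZT2d, ZT10b, ZT10c or ZT10d (adjusted p up to 0.181). A trend and robust prior, arrayWeights, the letter as a block, ranks and a 1.5-fold minimum each lost it as well. So did fitting only the ZT2 and ZT10 arrays, and leaving out the 5 arrays of high Tff3. Jun differed by -2.39 (interval -3.75 to -1.03, adjusted p = 0.0563) with ZT2 arrays from 6.86 to 11.62.

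Of the 12 genes of adiponectin receptors and AMPK measured, 0 were called. Adipor1 differed by 0.16 (interval -0.31 to 0.64) and Adipor2 by -0.38 (-0.84 to 0.08). Prkaa2, the AMPK subunit abundant in liver, read 12.94, 13.31, 13.4 and 12.7 at ZT2 and 13.83, 13.46, 13.85 and 13.9 at ZT10; the arrays did not overlap, but the difference of 0.67 (interval 0.27 to 1.07) had an adjusted p of 0.0726. Likewise 0 genes were called among 12 of mTORC1 and its restraint, 14 heat-shock chaperones, 21 cytosolic ribosomal proteins, 25 of the respiratory chain and ATP synthase, 20 of ANGPTL proteins and lipoproteins, 15 of complement and coagulation and 10 pericentral genes. The respiratory chain genes stayed within -0.51 and 0.27 and the ribosomal protein genes within -0.51 and 0.29.

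Markers of other cells were given beside these results because the samples are whole liver, in which fewer cells of a type and less RNA per cell cannot be told apart. Of the 11 marker lists 10 held 0 called genes. The exception was Sox9, 1 of 6 cholangiocyte markers, which was lower at ZT10 by 1.47 (SE 0.346, adjusted p = 0.0184), a call lost without ZT2b, ZT10a, ZT10c or ZT10d (adjusted p up to 0.0965). The summed signal of the cholangiocyte list lay between 11.6 and 12.8 at ZT2 and between 11.3 and 11.9 at ZT10 (log2 of the sum). The adipocyte sum did not overlap, at 7.61 to 8.14 against 7.18 to 7.57, with 4 of its 5 markers near background, Adipoq among them. Its markers did not fall as a set, since 3 of the 5 had a positive difference and the median was 0.0075. Stellate cell sums were 14.3 to 14.7 against 13.9 to 14.4. Endothelial markers differed by -0.56 to -0.0025, a negative sign in 11 of 11, with sums of 13.3 to 13.96 and 13.2 to 13.7. Their median of -0.27 was near those of stellate cells (-0.22, positive in 1 of 10) and Kupffer cells (-0.22, positive in 4 of 11). Lymphocyte markers had a median of 0.24, positive in 6 of 9, and the median over all features was 0.0075. The sums of Kupffer cells, lymphocytes, neutrophils, erythroid cells, acinar cells and muscle overlapped between the times. The part of these cells in the called genes was not tested.

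The changes of the light phase were then set against those over the matching hours of the dark phase, ZT22 minus ZT14, which use other arrays. The difference between the 2 changes was tested by limma with the same adjustment. It was called for 1014 features (4.57%), 422 with the more positive change in the light (1.90%) and 592 with the more negative (2.67%). Of the 232 features that rose over the light phase, 193 were called for this difference, 70 were also called as falling over the dark phase and 0 as rising. Of the 260 that fell over the light phase, 229 were called for the difference, 115 were called as rising over the dark phase and 0 as falling. Both sets were chosen by the light-phase change, which is also a part of the tested difference. The share called for the difference is therefore raised by the choice. Since ZT14 and ZT22 lie 12 h after ZT2 and ZT10, a daily rhythm in the shape of a sine wave has opposite changes over these pairs. A rhythm of another shape need not, even with 1 peak. The calls with opposite directions are 37.6% of the light-phase calls and 42.0% of the 441 dark-phase calls, which are 1.99% of features (1.26% higher and 0.725% lower at ZT22). Of the 8 arrays of the dark phase 3 had high Tff3: ZT14b at 13.26, ZT14d at 13.63 and ZT22a at 11.42. Without the 5 arrays of high Tff3 the difference was called for 843 features. The part of this in the dark-phase values was not tested.

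Individual genes show this turning, of which Dbp, Elovl3, Aqp8 and Rnf125 were named for being among the 5 largest differences of changes each way. Dbp rose by 8.59 in the light and differed by -5.42 in the dark (SE 0.392, adjusted p = 4.79e-09), and Elovl3 fell by 5.19 and then rose by 4.91 (SE 0.345, adjusted p = 4.00e-09). Aqp8 and Rnf125, which fell over the light phase, rose over the dark phase by 4.46 (SE 0.442, adjusted p = 5.57e-07) and 4.28 (SE 0.316, adjusted p = 5.70e-09). In Cyp7a1 the dark-phase difference was -0.72 (SE 0.370, adjusted p = 0.460), small beside its rise of 3.47, and the changes differed (adjusted p = 6.82e-06). Nr1d1 was not called between ZT2 and ZT10 but fell by 2.45 over the dark phase (SE 0.296, adjusted p = 1.37e-05), and its 2 changes differed (adjusted p = 0.000242). For Myc (adjusted p = 0.329), Ccn1 (0.254), Slc40a1 (0.236) and Stard4 (0.234) the test of the difference was not passed.

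**Figure D5:**
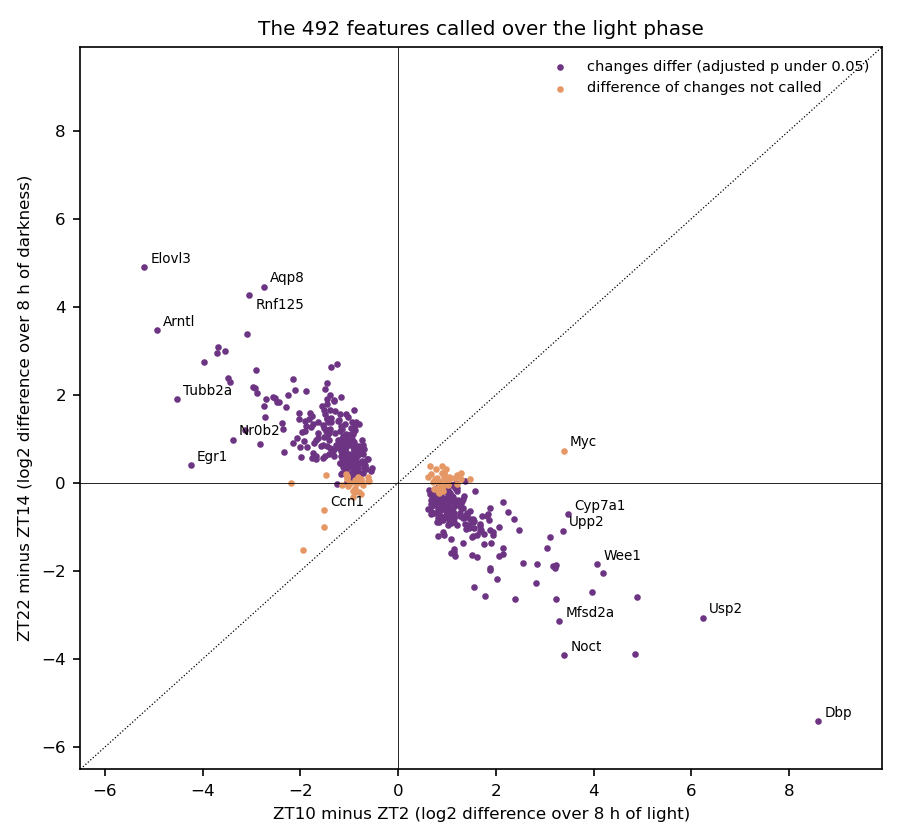
Log2 difference over 8 h of darkness (ZT22 minus ZT14, vertical axis) against that over 8 h of light (ZT10 minus ZT2, horizontal axis) for the 492 features called over the light phase; purple points were called for a difference between the 2 changes, orange points were not, and the dotted line marks equal changes. Most points lie to the upper left and the lower right, where the signs are opposite; Dbp reaches 8.59 and -5.42, Elovl3 -5.19 and 4.91.

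The position of the ZT6 mean describes how the changes were spread over the light phase. In 201 of the 232 features called higher and in 223 of the 260 called lower, the ZT6 mean lay between the end means. It exceeded both ends in 8 of the higher features and in 23 of the lower ones, and lay under both in 23 of the higher and 14 of the lower. The 3 ZT6 arrays entered neither end, and no test was made of this count. These features were chosen for a difference between the end means, which favours a ZT6 mean between them. The share over all features is not given here. ZT6b and ZT6c were arrays of high Tff3, unlike every array of ZT2 and ZT10, and the part of this in the ZT6 means was not tested.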

How the data were processed

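Per the labels' protocols, labelled RNA of each liver was hybridised to 1 Clariom S array. The deposited table holds log2 values with 2 decimals, 1 for each transcript cluster of each array. Its log base, software, normalization and genome build were not found in the sources used here, and it carries no detection calls. Signals near an array's lower quartile (3.78) are treated as background, and precision depends on the number of arrays.

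The platform annotation named 19572 of 22206 features; the other 2634 had no symbol, and 0 had several. There were 19505 distinct genes, with 19569 gene IDs present in the gene list for mouse, and 0 symbols had to be updated. Where features shared a gene, the brightest stands for it.

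The model was limma's (version 3.58.1, under R 4.3.3): lmFit and eBayes were run on all 22 arrays with 1 mean per time, with no filter, followed by Benjamini-Hochberg adjustment. The contrasts were ZT10 minus ZT2, ZT22 minus ZT14 and their difference. On simulated data of 22206 features for ZT10 minus ZT2, 70 of 100 features shifted by 1 and 98 of 100 shifted by 2 were called. Among the unshifted features 8 were called.

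The members and gene lists were chosen with earlier results of these data known. Of 775 gene names listed 696 were measured; the others are not analysed here. Named genes were the 12 largest rises and falls whose arrays did not overlap, with the higher group mean above the median feature; up to 4 called genes of lowest adjusted p per list, or 1 where none was called; the core clock genes; the 5 largest differences each way between light- and dark-phase change; and Adipoq. Predicted genes were left out of the 12 and the 5. Genes named beyond this were chosen after their values were seen; for them, leaving out each array was added later.

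Promoter windows came from RefSeq. Over all features, ZT2 and ZT10 arrays of the same letter did not deviate together (correlations from -0.060 to 0.020), and letters were not taken as pairs. These correlations cannot show whether a letter marks a shared batch, and other times were not compared in this way. Alternatives were quantile normalization, centring, a level filter, a trend and robust prior, arrayWeights, the letter as a block, fewer arrays, ranks, a threshold of 0.01, a 1.5-fold minimum and each array left out.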

Additional observations from a re-analysis of the deposited data

Results flagged for a closer look

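For 10 genes the change over the light phase differed from that over the dark phase by the largest amounts in each direction among named genes, by limma's test of the difference with Benjamini-Hochberg adjustment. The difference of changes (ZT10 minus ZT2, less ZT22 minus ZT14, log2) was 14.01 for Dbp (adjusted p = 1.91e-14), 9.29 for Usp2 (4.30e-09), 8.71 for Ciart (7.07e-13), 7.48 for Per3 (3.62e-10) and 7.30 for Noct (9.52e-05). It was -10.10 for Elovl3 (6.45e-13), -8.40 for Arntl (7.07e-13), -7.33 for Rnf125 (3.51e-11), -7.21 for Aqp8 (1.99e-08) and -6.78 for Chka (9.20e-08).

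In 11 of 226 groups of 4 arrays of a named gene, 1 array stood apart from the other 3; chance alone flags about 1 in 20 such groups. At ZT2 these were Arntl in ZT2c (10.77, the others 10.01 to 10.1), Hmgcs1 in ZT2d (15.81, the others 16.01 to 16.04), Ppara in ZT2c (12.25, the others 11.31 to 11.41), Slc2a2 in ZT2c (17.46, the others 17.24 to 17.26) and Slc30a10 in ZT2b (10.57, the others 10.26 to 10.27). At ZT10 they were Ccn1 in ZT10b (8.1, the others 7.56 to 7.65), Mylpf in ZT10c (5.1, the others 4.35 to 4.38), Pfkfb3 in ZT10a (9.92, the others 9.23 to 9.32) and Prkaa2 in ZT10b (13.46, the others 13.83 to 13.9). Also apart at ZT10 were Slc2a2 in ZT10c (18.64, the others 18.19 to 18.26) and Ulk1 in ZT10a (8.3, the others 8.74 to 8.82).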

How the results depend on the processing

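With a 1.5-fold minimum (limma's treat) the calls for ZT10 minus ZT2 fell to 106, 46 higher and 60 lower, and those for the difference between light- and dark-phase change to 306. With a threshold of 0.01 they were 272, 120, 152 and 563. The other alternatives kept all 4 counts within 1.5 times: calls ran from 383 (ranks within arrays) to 666 (features above the median level), with 522 after quantile normalization and 610 without the 5 arrays of high Tff3. With each array left out in turn they ranged from 371 to 451, the higher ones from 170 to 201, the lower ones from 190 to 254 and the difference of changes from 842 to 951. With the replicate block (letter) 445 were called, 206 higher and 239 lower, and 925 for the difference of changes. The share of higher calls was 47.2% and ran from 43.4% to 49.2%. No called named gene changed sign under these alternatives. Of the 91 named genes called, 42 were called under every alternative that tested them. The 1.5-fold minimum lost 46 and ranks 28. A trend and robust prior lost Cyp2a4, Cyp4a14, G6pc, Myc, Noct, Slc2a2 and Thrsp. Fitting only the ZT2 and ZT10 arrays lost Gckr, Insig1, Myc and Slc30a1. Quantile normalization lost Cbs, the letter as a block Myc, Slc2a2 and Slc30a1, and arrayWeights Myc. Leaving out the 5 arrays of high Tff3 also lost Myc.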

Other observations

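Further genes outside the lists, picked after their values were seen, also passed limma's test with Benjamini-Hochberg adjustment. Coq8a, a kinase-like protein of coenzyme Q synthesis, fell from 16.08, 15.61, 16.36 and 16.61 at ZT2 to 13.37, 13.14, 13.24 and 13.24 at ZT10 (-2.92, SE 0.229, adjusted p = 7.41e-09), opposite in sign to Coq10b. Pnp, a purine nucleoside phosphorylase, fell by 2.03 (SE 0.185, adjusted p = 1.06e-07), and Pnp2, which shares sequence with it, by 1.53. The ZT10 arrays of Pnp, from 9.28 to 9.75, lay under every ZT2 array, from 11.02 to 11.8. Cda, a cytidine deaminase, was lower by 1.47 (SE 0.340, adjusted p = 0.0158), a call lost without ZT2b, ZT2c or ZT10a (adjusted p up to 0.0759).

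Cldn1, a claudin, fell from 13.41, 13.63, 13.62 and 13.12 to 10.39, 10.35, 10.57 and 10.77 (-2.93, SE 0.255, adjusted p = 4.63e-08). Tjp3 fell by 2.06 (SE 0.245, adjusted p = 6.01e-06) and Cgn by 1.64 (SE 0.187, adjusted p = 3.41e-06). Zfp36l1, an RNA-binding protein that promotes mRNA decay, fell by 2.84 (SE 0.283, adjusted p = 4.58e-07). Its ZT2 arrays were spread, at 16.31, 16.13, 15.16 and 14.61, and its ZT10 arrays lay between 12.58 and 12.86. The vasopressin receptor Avpr1a fell by 2.15 (SE 0.377, adjusted p = 0.00113). Fnip1 and Fnip2, partners of folliculin, were higher by 0.97 (SE 0.214, adjusted p = 0.0105) and 1.29 (SE 0.288, adjusted p = 0.0114). The call of Fnip1 was lost without ZT2a or ZT10d (adjusted p up to 0.0568) and that of Fnip2 without ZT2b or ZT10d (up to 0.0563).

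Gdap10 rose by 3.06 (SE 0.376, adjusted p = 1.04e-05) beside a rise of 2.56 in Nampt. The gene table places Gdap10 within the span of Nampt, so signal of the 2 may not be separable.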
